A study of Mus musculus with 281 samples.

Results

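Connexins are the subunits of gap junctions. A set of connexins in the membrane of a cell forms a hemichannel, which docks with that of a neighbouring cell, and the joined channel passes ions and small metabolites. In the lateral wall of the cochlea, gap junctions built mainly of connexin 26 (Gjb2) and connexin 30 (Gjb6) join fibrocytes, basal cells and intermediate cells (IMCs) of the stria vascularis into a network that carries K+. Both genes are known to be associated with deafness. Marginal cells (MCs), which secrete K+ into endolymph, are known to lie outside this network.

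The RNA of 7 connexin genes, chosen as a list by name (Gjb2, Gjb6, Gja1, Gjb1, Gjb5, Gjc1 and Gjc3), was read in single cells of the stria vascularis. All 7 were found in the deposited table of 47752 genes. The cells were picked with a micropipette from collagenase-dissociated tissue and profiled with Smart-Seq2, which amplifies the poly-adenylated RNA of a cell and has no molecular identifiers. They comprised Slc26a4+/+ cells of 129S6 mice (P22 to P42, with 52, 26, 75 and 19 cells in the 4 runs described next), 40 cells labelled Slc26a4+/- (P26 to P33) and 69 cells labelled Slc26a4-/- (P24 to P44), Slc26a4 being the gene of the anion exchanger pendrin. The labels name no mouse, promoter or other allele, so each genotype was 1 sample, and means over cells carry no test. Values are in CPM, the estimated counts of a gene scaled to the same total in each cell.

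The cells held between 1848 and 7932729 estimated counts, with a median of 1312950, and the 20 cells with fewer than 100000 counts were all Slc26a4+/+. The profile names carry 4 run dates, here runs 1 to 4. Only runs 2 and 4 held more than 1 Slc26a4-/- cell beside Slc26a4+/+ cells, and run 4 held all Slc26a4+/- cells. A day number in the names, with the age, run and genotype, divided the cells into 37 sessions of 1 or more cells. Cell types were rebuilt by clustering without any connexin gene. They gave 69 Slc26a4+/+, 23 Slc26a4+/- and 39 Slc26a4-/- IMC-like cells and, in the same order of genotypes, 35 cells like root cells (RC-like; 16, 6 and 13), 34 like spindle cells (SC-like; 23, 2 and 9) and 21 MC-like cells (14, 2 and 5). A cluster of 43 cells led by the globin gene Hbb-bs and a cluster of 17 led by Crhbp stayed unnamed. Of the 14 IMC markers, 13 were found at 1 CPM or more in Slc26a4+/+ IMC-like cells, the exception being Pmel. Basal cells and fibrocytes, the other members of the network, had no cluster of their own. Slc26a4 RNA did not separate the labels in RC-like cells, with means of 1050 CPM in 16 Slc26a4+/+ and 1222 CPM in 13 Slc26a4-/- cells. In SC-like cells the means were 912 CPM in 23 Slc26a4+/+ and 174.05 CPM in 9 Slc26a4-/- cells. Genotypes are named as labelled throughout.

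Gjb2 (57098600 to 57104702) and Gjb6 (57123303 to 57133611) are neighbours on chromosome 14 of GRCm38, and both are read from the minus strand. Between them lie 18600 bases that hold 1 other annotated gene, Gm4491. Gjc3 is also read from the minus strand, on chromosome 5 (137953461 to 137963098). The 250 bases before the annotated start of each are printed because these 3 genes carried nearly all connexin counts and Gjb2 and Gjb6 were high in the same cells. The sequences come from RefSeq (GRCm38.p6) and read 5′ to 3′ on the minus strand, and capitals mark GGGCGG or its reverse complement CCGCCC, a GC box.
Gjb2, chr14:57104703-57104952: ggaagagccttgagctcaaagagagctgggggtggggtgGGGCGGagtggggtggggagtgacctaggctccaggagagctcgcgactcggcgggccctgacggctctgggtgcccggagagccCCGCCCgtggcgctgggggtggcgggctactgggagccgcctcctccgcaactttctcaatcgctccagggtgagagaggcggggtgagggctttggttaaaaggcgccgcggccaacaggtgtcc
Gjb6, chr14:57133612-57133861: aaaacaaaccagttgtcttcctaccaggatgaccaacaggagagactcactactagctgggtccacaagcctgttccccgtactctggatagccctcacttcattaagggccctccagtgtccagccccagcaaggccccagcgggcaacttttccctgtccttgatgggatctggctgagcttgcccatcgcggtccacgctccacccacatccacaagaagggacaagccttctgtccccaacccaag
Gjc3, chr5:137963099-137963348: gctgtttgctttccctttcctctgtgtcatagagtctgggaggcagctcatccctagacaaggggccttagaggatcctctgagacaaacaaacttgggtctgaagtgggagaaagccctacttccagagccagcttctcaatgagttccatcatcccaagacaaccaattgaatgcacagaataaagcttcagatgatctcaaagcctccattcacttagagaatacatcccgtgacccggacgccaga
The window of Gjb2 held 2 matches, 1 in each orientation, and those of Gjb6 and Gjc3 held none. This motif was found in 32.7% of the 32851 promoter windows of the same length. The E-boxes CACGTG (6.02% of windows) and CATGTG (12.3%) and the motif ACAAAG (16.5%), searched on both strands, had no match in the 3 windows. GC content was 69.2% for Gjb2, 56.8% for Gjb6 and 48.8% for Gjc3, against a median of 52.4% over all windows.

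In Slc26a4+/+ cells, 3 of the 7 connexins were found at any height. Gjb6 was high in IMC-like cells, several-fold lower in RC-like cells and near 0 in MC-like cells. Gjb2 had its highest mean CPM in IMC-like cells and a lower one in RC-like cells, an order that did not hold with DESeq2 size factors. Gjc3 (connexin 29, known mainly from Schwann cells and oligodendrocytes) was found in IMC-like cells and hardly in the other named types. Cell types are clusters of these same cells, so the differences between them are described with their spread and not tested.

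Gjb6 averaged 3275 CPM over the 69 IMC-like cells (SD 1556 between cells), with 4.45 CPM in the lowest cell, a median of 3179 and 7477 in the highest. Its means over the 21 sessions lay between 1571 and 4626 CPM, and those over runs 1 to 4 were 2710, 3826, 3231 and 3828 CPM. No session of IMC-like cells was thus low. The 16 RC-like cells averaged 657 CPM (SD 893), with a range from 2.01 to 3085 and a median of 224.1. The 23 SC-like cells had a mean of 116.2 CPM (SD 258.8) but a median of 4.86. Their highest value, 1082 CPM, came from 2 counts in the shallowest cell of the series. In the 14 MC-like cells, the mean was 5.20 CPM and the highest value 13.2.

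Gjb2 was lower, with an average of 504 CPM (SD 344) over IMC-like cells. Their lowest value was 0, the median 482 and the highest 1786. RC-like cells averaged 229.9 CPM (SD 272.2) with a range from 0 to 804 CPM, so that the groups overlapped over most of their range. SC-like cells (mean 18.2 CPM, median 0.449) and MC-like cells (25.1 and 1.37) were mostly without it. Gjc3 averaged 221.5 CPM over IMC-like cells (SD 241.03, median 144.6, highest 949), and 29 of the 69 cells (42.03%, exact 95% interval 30.2 to 54.5) lay below 100 CPM. The means of the other named types were 3.19 CPM (RC-like), 2.17 CPM (SC-like) and 4.196 CPM (MC-like). Of the 69 IMC-like cells, 1 lay below 100 CPM for Gjb6, 10 for Gjb2 and 29 for Gjc3. The cut was the same for genes of unlike means, so these counts follow level as well as spread. The SD between sessions on the log2 scale was 0.41 for Gjb6, 0.61 for Gjb2 and 1.02 for Gjc3.

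**Figure D1:**
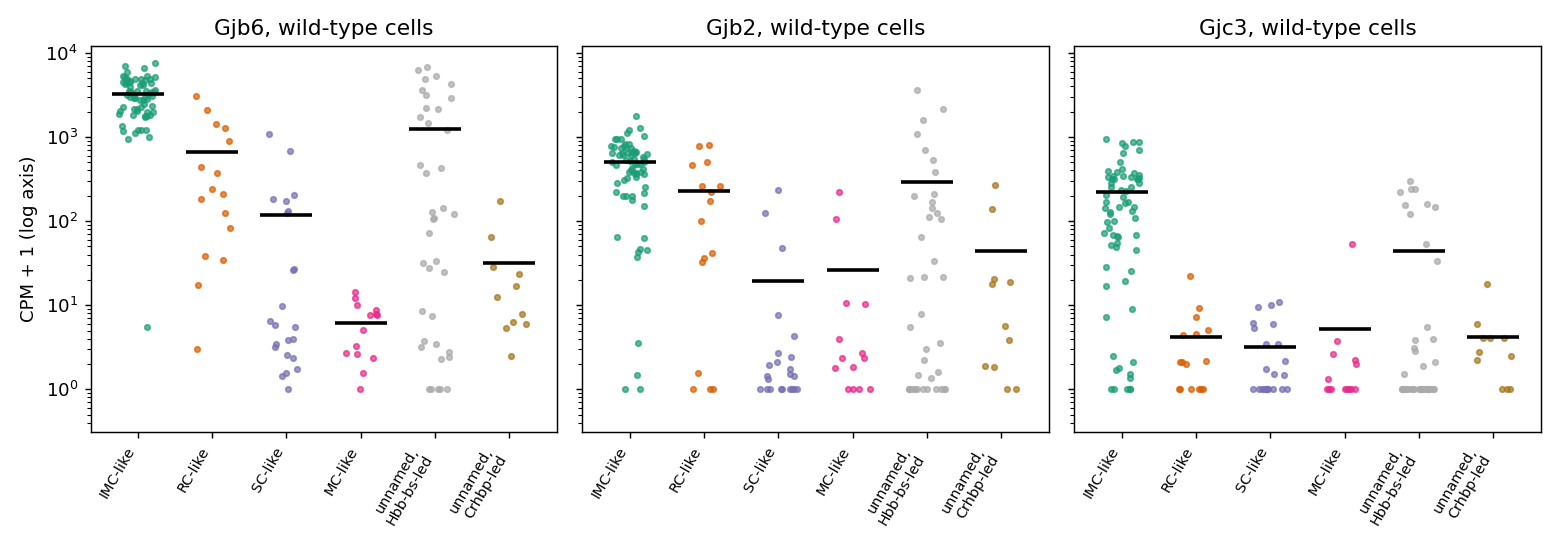
CPM + 1 on a log axis of Gjb6, Gjb2 and Gjc3 in each Slc26a4+/+ cell (points) of 6 clusters, with the mean as a black line. Gjb6 sits at 939 CPM or more in all but 1 of the 69 IMC-like cells and at 13.2 CPM or less in all 14 MC-like cells, and among the 4 named types Gjc3 passes 100 CPM in IMC-like cells alone.

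Differences of 2-fold or more were common among the genes compared, which left out genes low in both groups. The share of genes with differences as large as those of Gjb6 was not computed. The mean of Gjb6 in IMC-like cells was at least 2-fold above that in each other named type. The same held for 27.4% of 10459 genes against RC-like, 23% of 10361 against SC-like and 33.6% of 9912 against MC-like cells. Gjb6 was also at least 2-fold higher in RC-like than in SC-like cells, as were 25.8% of genes. When the 6 clusters are put in order of their mean, Gjb6 fell from IMC-like through Hbb-bs-led (1231 CPM), RC-like, SC-like and Crhbp-led (30.7 CPM) to MC-like cells. Among the steps between neighbours in this order, only that from RC-like to SC-like (3.30 on the log2 scale of session means) exceeded the larger SD between sessions of the pair, 2.81. For Gjb2 the order was IMC-like, Hbb-bs-led (291.1 CPM), RC-like, Crhbp-led (42.6 CPM), MC-like and SC-like, and no step between neighbours exceeded that SD. In both orders the Hbb-bs-led cluster, with an SD of 3.35 for Gjb6 and 3.48 for Gjb2, stood between IMC-like and RC-like cells. The steps therefore do not compare IMC-like cells directly with another named type. Between IMC-like and RC-like cells, the log2 ratio of Gjb2 was 1.13, but it was 0.15 with 20 principal components and -0.29 with DESeq2 size factors. For Gjc3 the step from IMC-like to Hbb-bs-led cells (43.1 CPM), 4.95 on that scale, exceeded the SD of 2.91, and the clusters below did not differ beyond it.

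The unnamed Hbb-bs-led cluster was mixed. Among its 43 cells, 13 scored highest for IMC markers and had a mean Gjb6 of 2036 CPM, and 9 scored highest for erythroid markers and had 35.5 CPM. Another 4 scored highest for fibrocyte markers, such as Coch and Otos, and had 3657 CPM of Gjb6 with 364 CPM of Gjb2 and 0.130 CPM of Gjc3. The single cell that scored highest for RC markers had 6327 CPM of Gjb6 and 3658 CPM of Gjb2. These groups were formed by score after clustering and are too small to be compared.

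Gjb1 (connexin 32) and Gjb5 (connexin 31.1) had 0 counts in every cell of the series, which allows a share of cells with a count of up to 1.07%. Gjc1 (connexin 45) had 1 to 6 counts in 20 cells and never more. Gja1 (connexin 43, common in heart and glia) was found in 3 cells of run 3, all Slc26a4+/+. An IMC-like cell had 366 counts (170.9 CPM), another 93 counts (110.9 CPM) and an MC-like cell 2 counts. The IMC-like cells also held Gjb6, at 4397 and 2858 CPM, and their fibrocyte marker sums, 38.3 and 475 CPM, were exceeded by 31 and 6 of the 69 Slc26a4+/+ IMC-like cells. Intervals and limits cover counting error only.

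A single count said little about a cell type. At least 1 count of Gjb6 was found in 69 of 69 IMC-like, 16 of 16 RC-like, 22 of 23 SC-like and also in 13 of 14 MC-like cells, whose highest level was 13.2 CPM. Median depth of Slc26a4+/+ cells was 1174072 counts for IMC-like, 1820555 for SC-like and 1425372 for MC-like cells. After cells were thinned to 100000 counts, both SC-like and MC-like cells had a share of 42.9% (21.8 to 65.98 in 21 cells and 17.7 to 71.1 in 14 cells). The thinned shares thus did not separate these types, but SC-like cells reached 689, 181.9 and 171.4 CPM at depths of 343971, 1929193 and 1312950 counts, above every Slc26a4+/+ MC-like cell. At 10 counts or more, Gjb6 was found in 98.6% of IMC-like (92.2 to 99.96), 87.5% of RC-like (61.7 to 98.4), 43.5% of SC-like (23.2 to 65.5) and 14.3% of MC-like cells (1.78 to 42.8). The shares for Gjb2 were 92.8%, 68.8%, 8.70% and 21.4%, and those for Gjc3 were 81.2%, 6.25%, 8.70% and 7.14%.

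**Figure D2:**
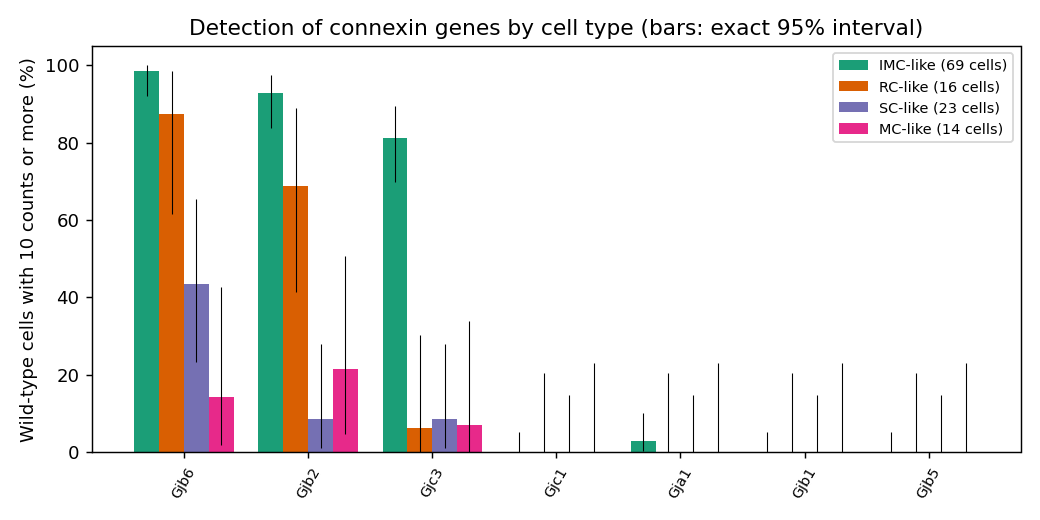
Percent of Slc26a4+/+ cells with 10 or more counts of each of the 7 listed connexin genes in the cells of the 4 named types, with exact 95% intervals. Gjb6, Gjb2 and Gjc3 stand above the other 4 genes in IMC-like cells, at 98.6%, 92.8% and 81.2%.

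Levels of different genes were compared per length, in TPM, which scales each transcript's counts by its length. In Slc26a4+/+ IMC-like cells, Gjb6 had a mean of 2742 TPM and rank 21 of 32316 genes, Gjb2 had 316 TPM (within the top 1.25% of genes) and Gjc3 232.6 TPM (rank 644). In RC-like cells Gjb6 had 495 TPM and Gjb2, at rank 1494, had 130.5 TPM, and in SC-like and MC-like cells no listed connexin exceeded 74.3 TPM. On the scale of counts, Gjb6, Gjb2 and Gjc3 summed to 0.400% of the counts of an IMC-like cell on average, and Gjb6 had the most counts of the 3 in 67 of 69 cells. Most Gjb6 counts of IMC-like cells (94.3%) were assigned to the 2105-base coding transcript and 5.52% to a coding transcript of 887 bases, while Gjb2 has 1 transcript, of 2406 bases. The TPM of Gjc3 rested mainly on a 584-base transcript with a retained intron, which took 15.1% of its counts but 72.5% of its TPM and was found in 27 of 69 cells. In the transcripts of GENCODE M21, no 31-base word of Gjb2, Gjb6, Gjb1 or Gjb5 occurs in another gene. The transcript set that the authors used for counting differs from it and was not searched, so a sharing of counts with a paralog was not tested there. For Gjc3 no word of the 584-base transcript occurs in another gene, whereas 7.11% of the words over its transcripts, all in the 4002-base coding one, do.

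Gjb6 and Gjb2, whose proteins are known to mix in the same channels, were mostly found in the same IMC-like cells. Both had 10 or more counts in 63 of 69 Slc26a4+/+ IMC-like cells (91.3%, interval 82.03 to 96.7), Gjb6 alone in 5 and Gjb2 alone in 1. In Slc26a4+/+ RC-like cells, both were found in 10 of 16, and over all genotypes in 2 of 34 SC-like and 2 of 21 MC-like cells. The ratio of Gjb6 to Gjb2 (CPM) had a median of 6.71 in Slc26a4+/+ IMC-like cells and 3.17 in Slc26a4+/+ RC-like cells. Within IMC-like cells of all genotypes the levels of the pair did not move together, with Pearson's r of 0.04 on log2(CPM + 1) and a Spearman rho of 0.08. Over the 35 RC-like cells these were 0.44 and 0.58, with r of 0.85 in the 13 Slc26a4-/- and 0.09 in the 16 Slc26a4+/+ cells. These correlations are descriptions over cells that share sessions and runs.

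**Figure D3:**
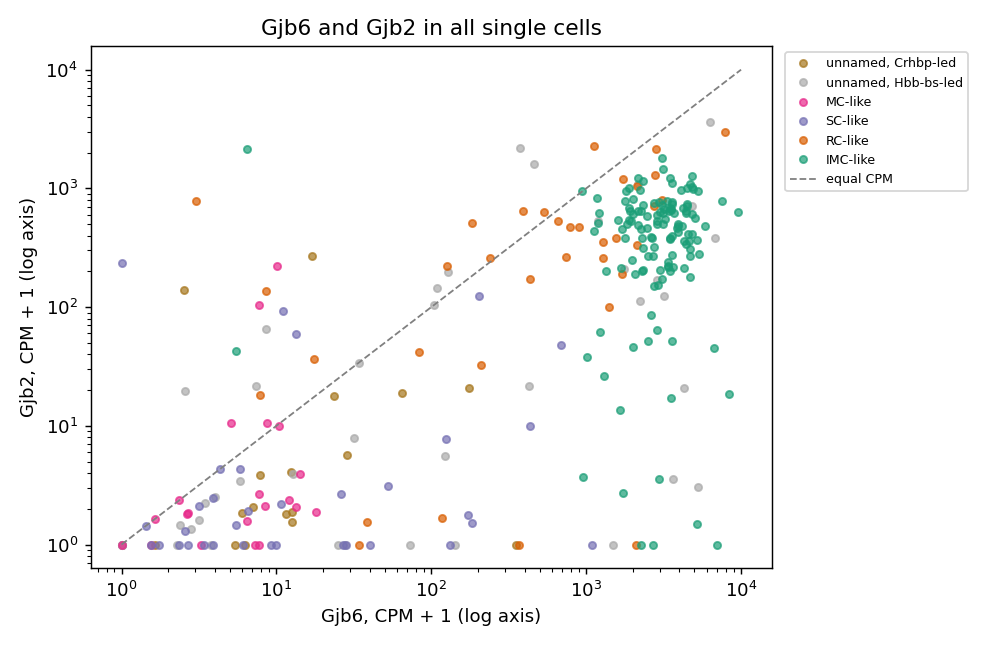
Gjb2 against Gjb6 in each single cell (CPM + 1, log axes), coloured by cell type, with a dashed line at equal CPM. Gjb6 is above Gjb2 in 67 of 69 Slc26a4+/+, 23 of 23 Slc26a4+/- and 38 of 39 Slc26a4-/- IMC-like cells, and in 25 of the 35 RC-like cells, which lie closer to the line.

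The genes most like each connexin were sought over Slc26a4+/+ cells with at least 100000 counts, among 8156 genes, by Pearson's r of log2(CPM + 1). Since these cells mix cell types, r mainly follows which types hold a gene. For Gjb2 the closest gene was its neighbour Gjb6 (r = 0.71), ahead of Apoe, an apolipoprotein (0.68), and Aebp1 (0.65). Apoe was higher in RC-like (1990 CPM) than in IMC-like cells (805 CPM). For Gjb6 the closest were Alpl, the tissue-nonspecific alkaline phosphatase (0.81), Glrb, the glycine receptor beta subunit (0.80), and Scn4b, a sodium channel beta subunit (0.80), and Gjb2 came in place 27. Alpl was at 1621 CPM in IMC-like and 5.80 CPM in RC-like cells. For Gjc3 they were Spon1, which codes for F-spondin (0.75), Hpse, heparanase (0.72), and Ednrb, an endothelin receptor of melanocytes (0.72), each with its highest mean in IMC-like cells.

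Of the other genes of the gap junction list, 13 further connexins, 3 pannexins and 13 partners of connexins, 15 reached a mean of 10 CPM in a named type of Slc26a4+/+ cells, namely all 13 partners, Gja5 and Panx1. Among the 13 further connexins, 8 had no count in any cell, including Gjd2. Gja5 (connexin 40, known from arterial endothelium) lay between 3.96 CPM (MC-like) and 19.2 CPM (SC-like) in the named types, but averaged 215.1 CPM in the Hbb-bs-led cluster, whose endothelial marker sum was 301.97 CPM. That sum was 5.35 to 101.02 CPM in the named types and 359 CPM in the Crhbp-led cluster, where Gja5 averaged 6.57 CPM. Panx1, which codes for a channel protein unrelated to connexins, was highest in IMC-like cells with 34.1 CPM, from 10 of 69 cells with 10 or more counts.

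The partners were spread over the types. Cdh2 (N-cadherin) averaged 130.4 CPM over IMC-like cells, where the next highest type had 2.47 CPM, and Cav1 (caveolin 1) averaged 215.5 CPM, where the next had 54.2 CPM. Ctnnb1 (beta-catenin) was also highest in IMC-like cells with 363 CPM. Among the tight junction proteins, Tjp1 (ZO-1), a known partner of connexin 43, lay between 18.1 and 41.3 CPM in all 4 types. Tjp3 (33.7 CPM) was highest in RC-like cells and Ocln (occludin) in MC-like cells with 330 CPM, against 2.70 CPM in IMC-like cells. Nov (CCN3) averaged 411 CPM over SC-like cells, with 0.288 CPM or less elsewhere, and Cdh1 (E-cadherin) was also highest there with 363 CPM. Nedd4, a ubiquitin ligase that acts on connexin 43, lay between 288.2 and 750 CPM. Cnst (consortin), with 13.9 to 73.1 CPM, and Dbn1 (drebrin), with 0.228 to 58.5 CPM, were highest in MC-like cells, and Ubqln4, with 40.3 to 189.6 CPM, in RC-like cells.

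In IMC-like cells, Gjb6 was the connexin with a difference between genotypes in the same direction in both runs, and it did not pass the test across all genes. Over all runs its mean was 2729 CPM in 39 Slc26a4-/- cells (SD 1061), 3747 CPM in 23 Slc26a4+/- cells (SD 1823) and 3275 CPM in 69 Slc26a4+/+ cells. The lowest, median and highest values were 5.48, 2624 and 5019 CPM in Slc26a4-/- cells and 960, 3475 and 9510 CPM in Slc26a4+/- cells, so the 3 genotypes overlapped over most of their range. Within run 2 the mean was 2486 CPM in 27 Slc26a4-/- cells and 3826 CPM in 12 Slc26a4+/+ cells, a log2 ratio of -0.62. Within run 4 it was 3277 CPM in 12 Slc26a4-/- cells, 3747 CPM in Slc26a4+/- and 3828 CPM in 7 Slc26a4+/+ cells, a log2 ratio of -0.22 between Slc26a4-/- and Slc26a4+/+ cells. In run 2, 24.5% of the 9350 genes compared had means at least 2-fold lower and 27.2% at least 2-fold higher in Slc26a4-/- cells. Gjb6 was not among them. Of the genes compared, 66.9% had a higher ratio than Gjb6 in run 2 and 55.4% in run 4.

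By session, the 6 Slc26a4+/+ means of run 2 lay between 3218 and 4550 CPM. Of the 6 Slc26a4-/- means, 5 lay between 1816 and 2899 CPM, below every Slc26a4+/+ session, and the other, of 1 cell, was at 4859 CPM. In run 4 the 3 Slc26a4-/- means were 2943, 3029 and 3540 CPM, the 4 Slc26a4+/- means lay between 3396 and 4494 CPM, and the 3 Slc26a4+/+ means were 3240, 3817 and 4432 CPM. These groups overlapped.

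**Figure D4:**
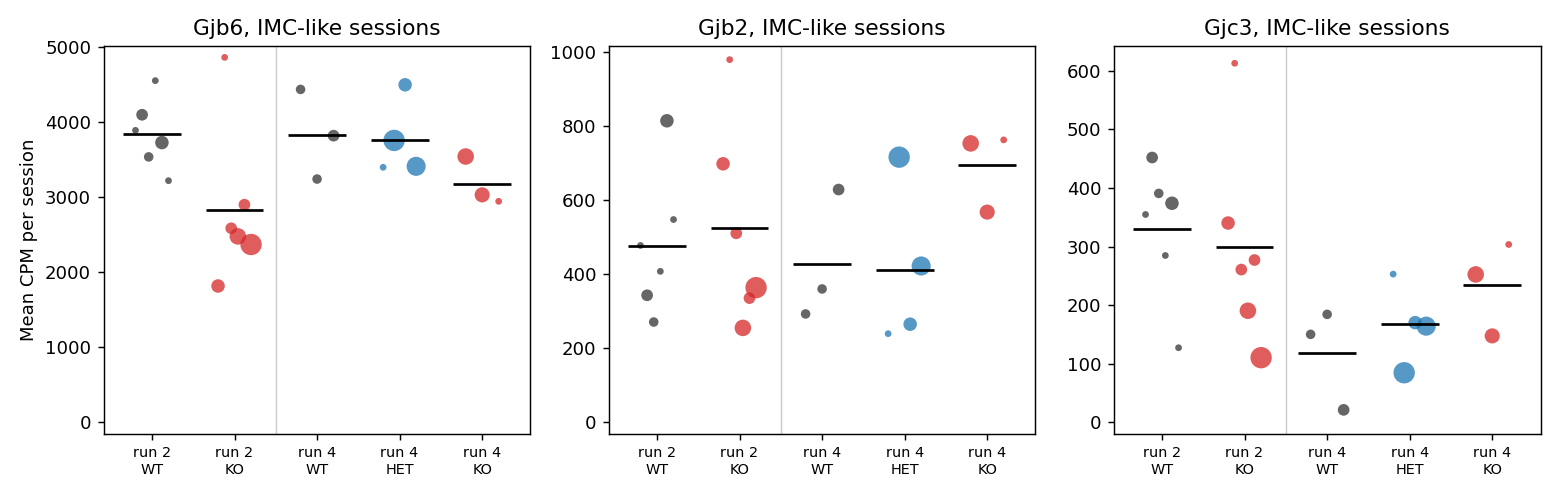
Session means in CPM of Gjb6, Gjb2 and Gjc3 in IMC-like cells by run and genotype (WT, HET and KO for cells labelled Slc26a4+/+, Slc26a4+/- and Slc26a4-/-), where the area of a dot grows with its number of cells and the line is the mean of the session means. In run 2, 5 of 6 Slc26a4-/- sessions lie below all 6 Slc26a4+/+ sessions for Gjb6, whereas Gjb2 and Gjc3 overlap in both runs.

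With counts summed per session and the run as a term (9 Slc26a4-/- and 9 Slc26a4+/+ sessions of runs 2 and 4), edgeR's quasi-likelihood test gave Gjb6 a log2 fold change of -0.31 (SE 0.21, adjusted p = 0.65) between Slc26a4-/- and Slc26a4+/+ sessions. In this comparison 1.68% of 10992 genes passed at an adjusted p of 0.05, 1.48% as higher and 0.2% as lower in Slc26a4-/- sessions, and 0 of the 3 listed connexins tested did. The median log2 fold change of all genes was 0.27, so Gjb6 lay further below the median gene than below 0, and with another scaling (RLE) these values were 0.10 and -0.44. An exact permutation of sessions within runs (18480 arrangements, two-sided), which weights sessions of any size equally, gave a difference of -0.62 in mean log2 CPM with p = 0.013, not adjusted for the 10 such tests run. On 5 days of run 2 the profile names gave both a Slc26a4-/- and a Slc26a4+/+ session, and Gjb6 was lower in the Slc26a4-/- session on 4 of them. Paired by day, a choice made after seeing the data, the difference in mean log2 CPM was -0.79 (SD 1.31, n = 5), with p = 0.25 by exact sign flips, two-sided, which can give no p below 0.0625. The permutation and the pairing both average log2(CPM + 1) over the cells of a session, where a low cell weighs more than in mean CPM. The P44 Slc26a4-/- session of run 2 had 4 cells with a mean of 1816 CPM, and its lowest cell was at 5.48 CPM. The part of this cell in both differences was not tested. Leaving out any 1 session kept the edgeR value between -0.40 and -0.22 and the adjusted p at 0.49 or more. The summed level of the 14 IMC markers was also different between these cells, with means of 67376 CPM in Slc26a4-/- and 57547 CPM in Slc26a4+/+ cells of run 2 and 92671 and 52860 CPM in run 4, and 1 marker in 3 of these groups and 0 in the Slc26a4-/- cells of run 4 lay under 1 CPM. Median depth was 655962 against 1310246 counts in run 2 and 3940874 against 1831846 in run 4. The IMC-like cells joined 2 clusters, with 40 and 29 Slc26a4+/+, 20 and 3 Slc26a4+/- and 27 and 12 Slc26a4-/- cells. Their Slc26a4+/+ means were 3321 and 3210 CPM for Gjb6 and 162.3 and 303.1 CPM for Gjc3. The Slc26a4-/- means were 2672 and 2858 CPM for Gjb6 and 201.9 and 245.2 CPM for Gjc3. The part of marker levels, depth and the mixture of clusters in the result was not tested.

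Gjb2 and Gjc3 had no direction common to both runs in IMC-like cells. Gjb2 had means of 426 CPM in Slc26a4-/- and 522 CPM in Slc26a4+/+ cells of run 2, and 678 and 457 CPM in run 4, where Slc26a4+/- cells had 515 CPM. Its session means overlapped in both runs (255.6 to 980 against 271.4 to 815 CPM in run 2, 568.4 to 764 against 293.3 to 629 CPM in run 4). The fold change in edgeR was 0.61 on the log2 scale (SE 0.47, adjusted p = 0.74). Gjc3 had 216.2 against 367 CPM in run 2 and 213.1 against 104.9 CPM in run 4, and its log2 fold change was -0.09 (SE 0.62, adjusted p = 0.99). Between Slc26a4+/- and Slc26a4+/+ sessions of run 4, 0 of 10992 genes (0%) passed in edgeR, with 637 at an unadjusted p under 0.05 and 1.24% of genes that passed in DESeq2. The log2 fold changes were 0.16 for Gjb6 (SE 0.31), -0.08 for Gjb2 (SE 0.69) and -0.10 for Gjc3 (SE 0.93). Between Slc26a4-/- and Slc26a4+/- sessions, 0 genes passed as well (427 at an unadjusted p under 0.05, 0.964% in DESeq2), and the value of Gjb6 was -0.47 (SE 0.30).

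Of the gap junction list, 13 genes were tested in IMC-like sessions, and 0 passed in any of the 3 comparisons in edgeR or DESeq2. Between Slc26a4-/- and Slc26a4+/+ sessions Cav1 was the only one with an unadjusted p under 0.05, at a log2 fold change of 1.88 (SE 0.82, adjusted p = 0.32 in edgeR), and was named here after its value was seen.

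In RC-like cells, the means of both Gjb6 and Gjb2 were highest in Slc26a4-/- cells, in a comparison of few cells. Gjb6 had a mean of 1993 CPM in 13 Slc26a4-/- cells (SD 2010), 876 CPM in 6 Slc26a4+/- cells (SD 827) and 657 CPM in 16 Slc26a4+/+ cells (SD 893). Its lowest, median and highest values were 6.86, 1704 and 7902 CPM in Slc26a4-/- cells, against 2.01, 224.1 and 3085 CPM in Slc26a4+/+ cells. Gjb2 had means of 1057 CPM (SD 905), 308 CPM (SD 202.5) and 229.9 CPM (SD 272.2), with 17.1, 704 and 2982 CPM as the lowest, median and highest values in Slc26a4-/- cells, against 0, 135.6 and 804 CPM in Slc26a4+/+ cells. For both genes the groups overlapped. Both means were at least 2-fold higher in Slc26a4-/- than in Slc26a4+/+ cells, as were those of 23.1% of the 10012 genes compared. The ratio was 3.03 for Gjb6 and 4.58 for Gjb2, and 14.1% and 9.46% of these genes had a higher ratio. Among Slc26a4-/- cells the mean of Gjb2 was higher in RC-like than in IMC-like cells (503 CPM), the reverse of the order of means in Slc26a4+/+ cells.

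Within run 4, Gjb6 had means of 1583 CPM in 7 Slc26a4-/-, 876 CPM in 6 Slc26a4+/- and 495 CPM in 5 Slc26a4+/+ cells. The Slc26a4+/+ cells had 16.5, 37.3, 239.04, 898 and 1285 CPM, and the Slc26a4-/- cells ranged from 389 to 2832 CPM with a median of 1704, so that 2 Slc26a4+/+ cells lay within their range. Gjb2 had means of 806, 308 and 204.5 CPM, and here the Slc26a4+/+ cells had 0.557, 35.5, 258.02, 259.1 and 469 CPM and the Slc26a4-/- cells 190.6 to 2147 CPM. In this run 35.2% of the genes compared had a mean at least 2-fold higher in Slc26a4-/- cells, and 26.3% had a higher ratio than Gjb6 and 23.5% than Gjb2. Run 2 held 1 Slc26a4+/+ RC-like cell, with 2101 CPM of Gjb6 and 0 CPM of Gjb2, beside 6 Slc26a4-/- cells with means of 2470 and 1349 CPM. Both genes had 10 or more counts in 12 of 13 Slc26a4-/- RC-like cells (92.3%, interval 63.97 to 99.8), against 10 of 16 Slc26a4+/+ cells (62.5%, 35.4 to 84.8), and the intervals overlapped. The ratio of Gjb6 to Gjb2 (CPM) had a median of 2.02 in Slc26a4-/- RC-like cells.

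**Figure D5:**
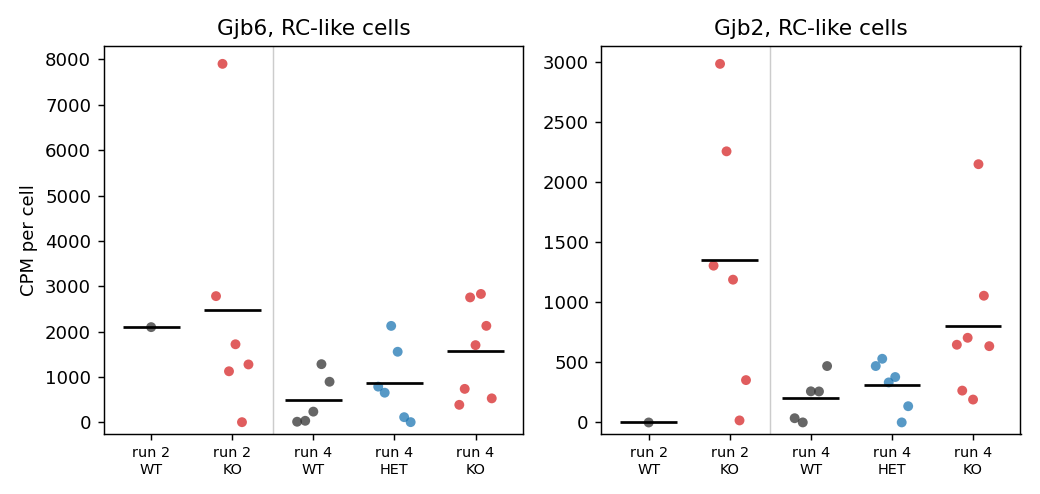
CPM of Gjb6 and Gjb2 in each RC-like cell (points) in runs 2 and 4 by genotype (WT, HET and KO for cells labelled Slc26a4+/+, Slc26a4+/- and Slc26a4-/-), with the mean as a line. The highest cells of both genes, at 7902 and 2982 CPM, are Slc26a4-/- cells of run 2, where the only Slc26a4+/+ cell stands at 2101 and 0 CPM.

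Over sessions (6 Slc26a4-/- and 3 Slc26a4+/+ sessions of runs 2 and 4), edgeR gave log2 fold changes of 1.03 for Gjb6 (SE 1.05, adjusted p = 1) and 3.34 for Gjb2 (SE 1.93, adjusted p = 1). Of 10469 genes 0 (0%) passed, with 473 at an unadjusted p under 0.05 and 98 that passed in DESeq2. On simulated counts with the spread of these sessions, edgeR also called 0% of genes changed by 6 on the log2 scale. A gene that did not pass here may thus still differ. When cells took their type from their own marker score, the value of Gjb6 turned to -0.12. The exact permutation test gave p = 0.57 for Gjb6 and p = 0.033 for Gjb2, the smallest that its 30 arrangements can give, and the latter difference includes the run 2 cell at 0. With RC-like and SC-like cells pooled as pendrin cells, Gjb2 had a log2 fold change of 6.72 (SE 2.29, adjusted p = 0.55 in edgeR, 0.0044 in DESeq2) and Gjb6 of 1.95 (SE 1.07, adjusted p = 0.98 in edgeR). Here 1 of 11043 genes (0.00906%) passed in edgeR, with 633 at an unadjusted p under 0.05, and 1.65% passed in DESeq2. Of the 13 genes of the gap junction list tested in pendrin cells, 0 passed in edgeR and 1, Nov, passed in DESeq2 as lower in Slc26a4-/- sessions (adjusted p = 0.018). In run 4, however, all 7 Slc26a4-/- pendrin cells were RC-like whereas 3 of 8 Slc26a4+/+ pendrin cells were SC-like, so the mixture of types and the genotype cannot be told apart in these joint values. IMC markers, which mark a type with high Gjb6, summed to means of 1448, 1015.4 and 1853 CPM in Slc26a4-/-, Slc26a4+/- and Slc26a4+/+ RC-like cells, and fibrocyte markers to 1958, 3100 and 1519 CPM. In run 4, the 6 RC markers summed to 24830 CPM in Slc26a4-/- and 19398 CPM in Slc26a4+/+ RC-like cells, and the IMC markers to 1134 and 1612 CPM. Median depth of RC-like cells was 2140195 counts in Slc26a4-/- and 891474 in Slc26a4+/+ cells. In run 2 the IMC markers summed to 1815 CPM in Slc26a4-/- RC-like cells and 790 CPM in the single Slc26a4+/+ cell. The part of marker levels and depth in the result was not tested.

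In SC-like and MC-like cells, the mean of Gjb6 was lower than in IMC-like cells at each genotype. Gjb6 had a mean of 59.9 CPM in 9 Slc26a4-/- SC-like cells, all of run 2, with a median of 9.67 and 435 in the highest cell. The 23 Slc26a4+/+ SC-like cells had 116.2 CPM, but the 2 of run 2 only 15.7 CPM. Gjb2 had means of 11.6 and 18.2 CPM in these groups. In MC-like cells Gjb6 had means of 6.42 CPM in 5 Slc26a4-/-, 13.2 CPM in 2 Slc26a4+/- and 5.20 CPM in 14 Slc26a4+/+ cells, and Gjb2 and Gjc3 did not exceed means of 25.1 and 4.196 CPM at any genotype.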

How the data were processed

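RNA of single cells of the mouse stria vascularis was measured with Smart-Seq2. Per the submitters' processing notes, which name GRCm38 and mm10, the authors quantified transcripts with kallisto, whose version is not given in the sources used here, and deposited estimated counts per gene, all of them whole numbers, together with estimated counts and TPM per transcript for each cell. Every measured row of the gene table named a gene. Of its 298 columns, 17 match no sample of the labels used here and were left out. The samples were 281 cells, 172 of them Slc26a4+/+. Groups came from the sample titles. The genes were listed by name, and the members, the gap junction list and the marker lists were chosen with earlier results of these data known. Transcripts were assigned to genes by GENCODE M21, which lacked 1376 of 98492 transcripts (median 0.691% of counts per cell).

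Counts were scaled to CPM. The 281 cells were clustered in Seurat 5.3 (R 4.3) with 10 principal components and a resolution of 0.8 from 1892 variable genes, without connexins and genes named by the study. A cluster took the name of the marker list for which nearly all of its cells scored highest, where at least 3 markers were in most of its cells and its 10 leading genes held at least 1 marker of that list and no more of another, and 218 of 221 cells in named clusters had the same type by their own score. The top scores of 12 cells differed by less than 0.25. Differences from the cell types of the study can come from the rebuilt names. Cells were picked singly, so no doublet caller was run, and no cell was filtered. Ratios of mean CPM used a pseudocount of 1, so they understate changes at low levels.

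Counts summed per session, which needed no rounding, were filtered for low values (filterByExpr) and tested in edgeR 4.0 with quasi-likelihood F tests (genotype with the run as a term) and Benjamini-Hochberg adjustment over all genes. DESeq2 1.42 was an alternative, and the edgeR fits were tested on simulated counts with the spread of these sessions. Among genes with 10 counts in most sessions, changes of 2 and 6 on the log2 scale passed for 4% and 74% in IMC-like cells. In pendrin cells 0% and 6% passed, and in RC-like cells 0% of either. A gene that did not pass may thus still differ. Sessions were read from profile names, not from labels, and whether they hold different mice is not stated, so p-values measure the spread between these sessions. The fit of RC-like cells alone, sessions of at least 2 cells, pairs of sessions by day and median CPM were added after seeing the data. Other alternatives were size factors, low count filters, depth, clustering settings, marker score types, TPM and runs. Intervals are exact (Clopper-Pearson) at 95%, and a count of 0 was given the limit of 3 counts. Named genes were the listed connexins, members of the gap junction list with a mean of at least 10 CPM in a named type, and the 3 genes with the highest correlation to Gjb2, Gjb6 and Gjc3 over 152 Slc26a4+/+ cells. Some genes of the gap junction list are not reported here. Values were computed in Python 3.11.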

Additional observations from a re-analysis of the deposited data

Results flagged for a closer look

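Groups of 4 to 10 session means of the same gene, cell type, run and genotype were searched for a session far from the others by Dixon's rule, and 6 of 33 groups had one. The rule flags about 1 group in 20 by chance where values are normal with equal spread. Session means of CPM, from unlike numbers of cells and some near 0, need not be so. The number of flags therefore cannot be set against chance. In Slc26a4-/- IMC-like cells of run 2, a session of 1 cell had 4859 CPM of Gjb6, against 1816 to 2899 CPM in the other 5. In Slc26a4+/+ IMC-like cells of run 3, a session had 211.4 CPM of Gjb2, against 459 to 655 CPM in the other 7. In RC-like cells, a Slc26a4+/+ session of run 1 had 804 CPM of Gjb2, against 0 to 98.5 CPM in the other 3, and a Slc26a4+/- session of run 4 had 2128 CPM of Gjb6, against 561 to 790 CPM. In Slc26a4+/+ SC-like cells of run 3, a session had 58.2 CPM of Gjb2, against 0 to 7.15 CPM in the other 4. In Slc26a4+/+ MC-like cells of run 3, a session had 17.3 CPM of Gjc3, against 0.338 to 1.23 CPM in the other 3.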

How the results depend on the processing

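The groups share no replicate numbers in the labels, but 5 days of the profile names held an IMC-like session of both genotypes. Deviations of same-day sessions from their genotype means correlated at 0.0021 to 0.068 across genes. With the day as a block (after seeing the data), edgeR called 3 of 10110 genes (0.0297%) and gave Gjb6 -0.39, Gjb2 0.52 and Gjc3 -0.26 (adjusted p = 1 each), and the same sessions without the block gave Gjb6 -0.46. Among the main values of the comparisons recomputed under an alternative, 5 moved, 5 changed sign, 1 newly passed its threshold and the others counted as the same. A ratio of means counted as moved beyond the spread between sessions, and a count of called connexins with any difference. Only session-level comparisons were searched for changes of sign. A ratio that changed sign within that spread counted as the same. That of Gjb2 between IMC-like and RC-like cells, with DESeq2 size factors, is an example. Among the values of single genes and shares of cells, 10 moved, 1 changed sign, 3 newly passed and the others counted as the same. With DESeq2 size factors the log2 ratio of Gjb6 between RC-like and SC-like Slc26a4+/+ cells was 5.88 (2.49 with CPM). Leaving out a run gave 4.88 to 7.37 for Gjc3 between IMC-like and MC-like cells, the highest without run 3, which held 8 of the 14 MC-like cells (5.42 with all). Between Slc26a4-/- and Slc26a4+/+ cells, Gjc3 in IMC-like cells had 1.02 within run 4 (-0.04 over all runs), and Gjb2 in RC-like cells had 10.40 within run 2, where the only Slc26a4+/+ cell was at 0. In the session fits, Gjc3 of IMC-like cells ranged from -0.29 to 0.066 when 1 session was left out and was 0.12 as a permutation difference, Gjb6 of IMC-like cells had -0.62 by permutation, and Gjb6 of RC-like cells turned to -0.12 with types from the marker score. DESeq2 called 1 listed connexin and 1.65% of all genes in pendrin cells, where edgeR called 0 and 0.00906%. In IMC-like cells, DESeq2 called 841 genes between Slc26a4-/- and Slc26a4+/+ sessions (7.65%), edgeR without the filter on low counts 1.70% of 17791 and edgeR on sessions of at least 2 cells 15 (0.129%), against 1.68% in the report. The cause of these moves was not tested. Depth limits statements on Gjb1, Gjb5 and Gjc1 to an absence of counts at a median of 1312950 per cell.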
